A study of Rattus norvegicus with 4 samples.

Results

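Cell cycle genes were followed in spleen cells of rats given liposomes, small lipid vesicles, or saline. The 33 listed genes comprised 14 that act before or during S phase and 19 that act in mitosis or peak towards it, and they were found by the gene names that the array files give. The names of 32 of them occurred, on 42 of 30367 probes, and no probe carried the name Mki67. A total of 31 members, 13 of S phase and 18 of mitosis, entered the test beside the other genes, 12858 in all. The single member with a probe that did not enter, the cyclin gene Ccne2, was not well above background on any array, and its scaled intensity ran from 8.39 to 10.8.

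All rats were males of the WKAH strain aged 8 to 12 weeks, and all cells came from the spleen 24 h after the injection. Cells carrying MHC class II were removed with OX-6 beads, and cells carrying CD11b/c, an integrin of myeloid cells, were kept with OX-42 and beads. Each group, saline or liposome, had 2 arrays, whose titles carry the numbers 1 and 2. The liposomes' lipids and dose are not given in the sources used here. Whether each array stands for its own animal is not stated, and the p-values therefore cover only how far these samples spread, possibly for technical reasons. All 4 arrays lay on 1 slide.

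A dividing cell first commits to division in G1, where cyclin D with CDK4 and then cyclin E act on the retinoblastoma protein and free E2F factors to switch on the replication genes. In S phase the MCM helicase opens the DNA, PCNA holds the polymerases to it, and thymidine kinase, thymidylate synthase and ribonucleotide reductase supply the building blocks. Cyclin B with CDK1 then drives mitosis, aurora and polo kinases build and check the spindle, and the anaphase-promoting complex with CDC20 ends it. Genes of mitosis are typically kept off in resting cells by the DREAM complex at a short promoter element, the CHR. In the spleen, dividing cells include lymphocytes, red cell precursors and some myeloid cells.

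The promoters illustrate these roles. RefSeq promoter windows on GRCr8, from 250 bases before a gene's start to 50 after it, were on hand for 25 of the 33 genes, 15 mitotic and 10 of S phase. The CHR core TTTGAA, read on both strands, occurred in 10 of 15 mitotic promoters (66.7%), in 1 of 10 S phase promoters and in 18.3% of all 33469 promoters, each 300 bases long. An E2F site written as TTTGGCGC, TTTGCCGC, TTTCGCGC or TTTCCCGC, on both strands, occurred in 6 of 10 S phase promoters (60%), in 1 of 15 mitotic promoters and in 2.14% of all promoters. The CCAAT box occurred in 12 of 15 mitotic promoters (80%), in 6 of 10 S phase promoters and in 37.5% of all. A match describes the letters only. The 4 promoters below show a CHR beside CCAAT boxes in the genes of the mitotic kinase Cdk1 and the anaphase activator Cdc20, and E2F sites in the genes of the helicase subunit Mcm2 and of thymidylate synthase, Tyms. The S phase promoter with a CHR is that of Mcm2, and the mitotic promoter with an E2F site is that of Cdk1, so these motifs did not divide the lists cleanly. Capitals mark the matches, and the E2F matches of Mcm2 overlap. The windows lie at chr20:19265043-19265342 (plus strand), chr5:137255750-137256049 (minus), chr4:122918045-122918344 (minus) and chr9:120776034-120776333 (minus).
Cdk1: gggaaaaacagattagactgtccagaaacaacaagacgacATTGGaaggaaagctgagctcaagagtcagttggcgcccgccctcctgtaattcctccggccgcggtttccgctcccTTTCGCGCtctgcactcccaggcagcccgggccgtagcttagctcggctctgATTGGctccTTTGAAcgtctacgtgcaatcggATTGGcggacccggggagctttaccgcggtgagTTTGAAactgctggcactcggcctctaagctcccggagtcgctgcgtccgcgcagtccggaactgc
Cdc20: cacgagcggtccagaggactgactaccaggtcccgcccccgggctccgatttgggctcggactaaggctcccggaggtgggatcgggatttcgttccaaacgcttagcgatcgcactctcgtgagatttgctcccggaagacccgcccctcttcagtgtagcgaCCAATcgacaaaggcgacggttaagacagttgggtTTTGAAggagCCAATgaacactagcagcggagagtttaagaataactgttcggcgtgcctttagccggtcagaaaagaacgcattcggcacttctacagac
Mcm2: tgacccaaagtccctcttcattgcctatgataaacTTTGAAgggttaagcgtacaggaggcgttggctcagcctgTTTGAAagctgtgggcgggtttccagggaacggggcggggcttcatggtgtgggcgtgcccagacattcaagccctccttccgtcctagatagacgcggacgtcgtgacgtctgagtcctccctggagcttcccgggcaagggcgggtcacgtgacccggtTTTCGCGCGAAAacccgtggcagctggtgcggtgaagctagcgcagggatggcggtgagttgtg
Tyms: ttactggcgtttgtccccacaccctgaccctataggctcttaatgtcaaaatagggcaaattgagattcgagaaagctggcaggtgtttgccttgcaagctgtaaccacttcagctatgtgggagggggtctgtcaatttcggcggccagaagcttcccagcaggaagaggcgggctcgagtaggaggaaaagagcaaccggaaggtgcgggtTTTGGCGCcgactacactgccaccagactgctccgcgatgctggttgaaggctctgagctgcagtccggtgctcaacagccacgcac

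No member passed the test in either direction. By limma with Benjamini-Hochberg adjustment over all genes, 0 of 31 members were called, where 8.89% of all genes were (4.83% higher and 4.06% lower with liposomes). That split was 621 genes higher and 522 lower, and with median scaling it was 852 and 442. At an unadjusted p under 0.05 there were 5 members, Tk1, Mcm2, Tyms, Pcna and Aurka, where 32.5% of all genes lay under that value. Member log2 fold changes, liposome minus saline, ran from -0.42 for Pcna to 0.59 for Tyms, with a median of 0.08, against a median of -0.04 over all genes. With normexp background correction and with median scaling 1 member, Tk1, was called (limma adjusted p = 0.0400 and 0.0494).

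**Figure D1:**
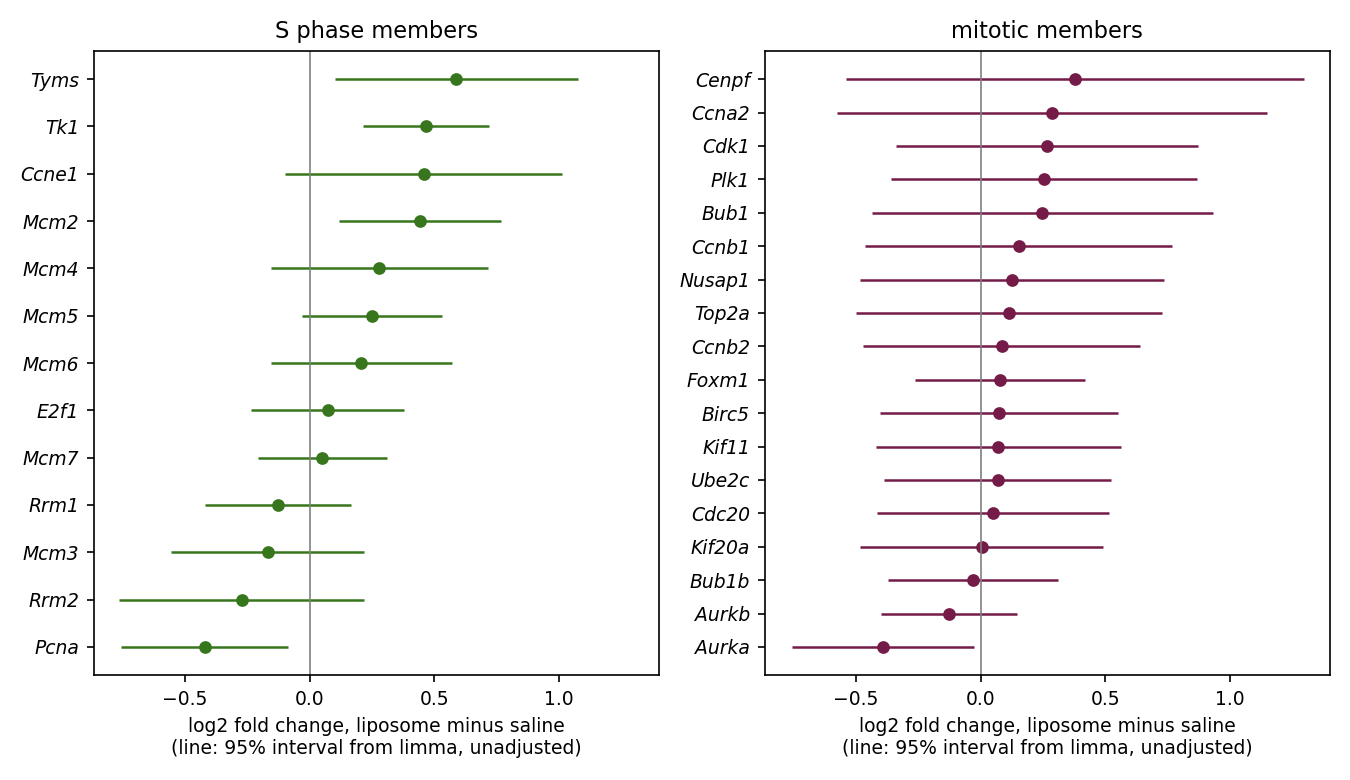
Log2 fold change of each tested member, liposome minus saline (x axis, log2 units), for 13 S phase (left) and 18 mitotic genes (right); points are limma estimates and lines their 95% intervals, not adjusted for the number of genes. Intervals of Tyms, Tk1 and Mcm2 lie above 0, those of Pcna and Aurka below 0, and all others span 0.

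Among enzymes that make DNA building blocks, thymidine kinase and thymidylate synthase were brighter on both liposome arrays. Levels are given as processed intensity after each array was scaled to the same 75th percentile. Tk1, the salvage kinase of thymidine, read 1447 on saline 1, 1436 on saline 2, 2000 on liposome 1 and 1983 on liposome 2. The liposome arrays were both above the saline arrays, and the replicates lay close together. Its log2 fold change was 0.47 ± 0.09 (SE, n = 2 arrays per group), or 1.38-fold, with a limma adjusted p of 0.0573 and a 95% interval from 0.22 to 0.72. Tyms, which makes thymidylate anew, read 113 and 151 on the saline arrays and 207 and 186 on the liposome arrays. Its groups did not overlap either, with a log2 fold change of 0.59 ± 0.18 (SE, limma adjusted p = 0.112). The subunits of ribonucleotide reductase lay the other way. Rrm2, the subunit whose level follows S phase, read 6395 and 7516 with saline and 6571 and 5016 with liposomes. These groups overlapped (log2 fold change -0.27 ± 0.18, limma adjusted p = 0.354), and its second probe had a log2 fold change of -0.36. Rrm1, the large subunit, read 115 and 123 with saline and 104 and 114 with liposomes (log2 fold change -0.13 ± 0.11, limma adjusted p = 0.453).

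Of the 6 subunits of the MCM helicase, 5 had fold changes above 0 and Mcm3 had one below. Mcm2 read 814 and 932 with saline and 1143 and 1226 with liposomes. The groups were apart, at a log2 fold change of 0.44 ± 0.12 (SE, limma adjusted p = 0.0914, 95% interval 0.12 to 0.77). Mcm4 read 1553 and 2018 with saline and 2103 and 2195 with liposomes, Mcm5 read 304 and 334 against 379 and 381, and Mcm6 read 437 and 525 against 535 and 571. In each of the 3 the lower liposome array still exceeded the higher saline array, by a margin that was small for Mcm4 and Mcm6, and their log2 fold changes were 0.28, 0.25 and 0.21 (limma adjusted p = 0.297, 0.183 and 0.343). Mcm7 read 3839 and 3990 with saline and 4111 and 3998 with liposomes, at a log2 fold change of 0.05 ± 0.10, and Mcm3 read 10591 and 10726 against 10590 and 8505, at -0.17 ± 0.14 (SE, limma adjusted p = 0.74 and 0.458). The groups of both were apart by a very small margin. The helicase subunits work as a ring in the cell, and none passed here. The 95% interval of Mcm3, from -0.55 to 0.22, spans 0, so its direction is not settled. A dimmer Mcm3 probe, not used in the test, read 2862 and 2614 with saline and 2517 and 2238 with liposomes. Its log2 fold change was -0.20.

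The clamp gene Pcna lay lower with liposomes. It read 17653 and 19679 on the saline arrays and 13085 and 14798 on the liposome arrays, so the groups did not overlap. The log2 fold change was -0.42 ± 0.12 (SE), with a limma adjusted p of 0.105 and a 95% interval from -0.75 to -0.09. It was -0.43 between arrays numbered 1 and -0.41 between arrays numbered 2. Among regulators of entry into S phase, the cyclin gene Ccne1 read 321 and 442 with saline and 566 and 472 with liposomes (log2 fold change 0.46 ± 0.20, limma adjusted p = 0.207). E2f1, an E2F factor that switches on replication genes, read 1042 and 1112 with saline and 1199 and 1069 with liposomes (log2 fold change 0.07 ± 0.11, limma adjusted p = 0.682). Its groups overlapped on this brighter probe. The dimmer E2f1 probe read 67.9 and 64.4 with saline and 94.9 and 96.8 with liposomes, a log2 fold change of 0.54, so the pair of probes disagreed on whether the groups were apart.

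The probes that carry these readings are 60 bases long, and 5 of them are shown. Those of Tk1, Pcna and Mcm2 belong to S phase members, with 2 probes of Mcm2 side by side, and that of Cdk1 to a mitotic member. The deposited positions are on the rat build rn4. Cdk1 lies at chr20:20043755-20043814 (plus strand), Pcna at chr3:120008997-120009056 (minus), the brighter Mcm2 probe at chr4:122978031-122978090 (minus) and the dimmer one at chr4:122981286-122981436 (minus), where the 60 bases are spread over 151 bases of genome. The Tk1 probe is marked as unmapped in the files. No annotation of rn4 was used here, so exon or UTR is not given.
Tk1 probe: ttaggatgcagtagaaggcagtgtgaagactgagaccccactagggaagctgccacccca
Pcna probe: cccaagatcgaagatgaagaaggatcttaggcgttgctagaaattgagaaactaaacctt
Mcm2 probe, brighter: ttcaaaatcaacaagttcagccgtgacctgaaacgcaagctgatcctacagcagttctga
Mcm2 probe, dimmer: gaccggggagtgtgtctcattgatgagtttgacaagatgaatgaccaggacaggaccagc
Cdk1 probe: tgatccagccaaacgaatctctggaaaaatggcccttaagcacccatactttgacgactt
The dimmer Mcm2 probe read 132 and 114 with saline, 143 on liposome 1 and 363 on liposome 2, so its log2 fold change of 0.89 came from 1 array. The brighter probe, which was tested, had both liposome arrays high.

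**Figure D2:**
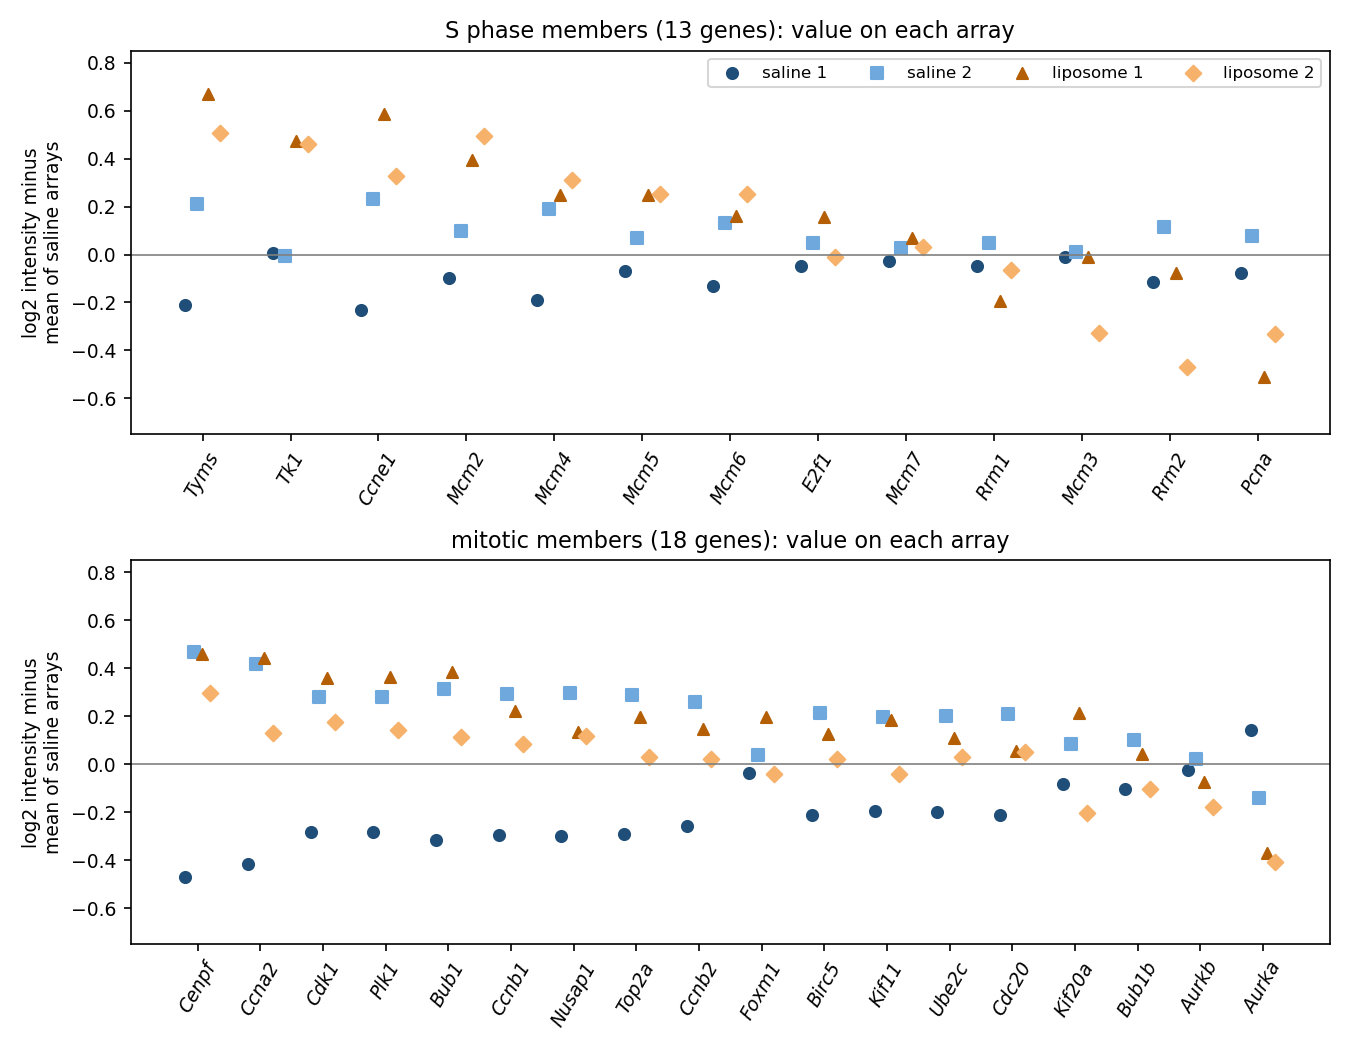
Log2 intensity of each tested member on each array (y axis, log2 units) relative to the mean of its saline arrays, for 13 S phase genes (top) and 18 mitotic genes (bottom), sorted by fold change. Saline 1 is the lowest array for 14 of the 18 mitotic genes, while saline 2 and the liposome arrays lie closer together.

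The mitotic genes did not separate the groups, and saline 1 stood apart from the other arrays. Of 18 mitotic members 17 read higher on saline 2 than on saline 1 and all 18 read lower on liposome 2 than on liposome 1, and 17 did both (94.4%, against 19.7% of all genes). Saline 1 was the lowest of the 4 arrays for 14 of them (77.8%, against 21.7% of all genes). This was not particular to the mitotic members. Saline 1 was also lowest for 8 of 13 S phase members (61.5%). In 2 further lists described below, it was lowest for 21 of 34 other replication genes (61.8%) and 30 of 48 other mitotic genes (62.5%). The kinase that drives mitosis, Cdk1, read 1135 on saline 1, 1678 on saline 2, 1769 on liposome 1 and 1559 on liposome 2. The liposome arrays fell on both sides of saline 2, and the log2 fold change was 0.27 ± 0.22 (SE, limma adjusted p = 0.45). Its probe was printed 10 times on each array, and these spots varied with a coefficient of variation of 3.83% to 4.07%. Spots show only the technical spread within an array. Nusap1, a spindle microtubule protein also printed 10 times, read 273 and 413 with saline and 369 and 365 with liposomes, with a coefficient of variation between spots of 3.72% to 8.11%.

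The cyclins that partner Cdk1 also read lowest on saline 1. Ccna2, cyclin A2 of S phase and G2, read 509 on saline 1, 907 on saline 2, 923 on liposome 1 and 745 on liposome 2 (log2 fold change 0.29 ± 0.32, limma adjusted p = 0.563). Its second probe read 571, 814, 895 and 760 in that order, so both probes placed saline 1 lowest. Ccnb1, cyclin B1, read 234 and 351 with saline and 334 and 304 with liposomes, and Ccnb2 read 157 and 225 against 208 and 191. The liposome values of both cyclins lay between the saline values (log2 fold changes 0.15 and 0.08, limma adjusted p = 0.667 and 0.799).

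Of the kinases of the spindle and its checkpoint, Plk1 and Bub1 read lowest on saline 1 and the aurora kinases did not. Plk1, polo-like kinase 1, read 902 and 1331 with saline and 1408 and 1210 with liposomes, and the checkpoint kinase gene Bub1 read 416 and 644 against 676 and 559 (limma adjusted p = 0.479 and 0.531). Bub1b, the partner of Bub1 in that checkpoint, lay at -0.03 ± 0.13 (SE), and at 0.023 with quantile normalization and 0.051 with median scaling. Aurka, the kinase of the spindle poles, read 3454 and 2840 with saline and 2420 and 2361 with liposomes, with saline 1 the highest array. Its groups did not overlap, with a log2 fold change of -0.39 ± 0.13 (SE), a limma adjusted p of 0.136 and a 95% interval from -0.75 to -0.03. Aurkb, the kinase of the chromosome passenger complex, also lay lower without overlap, at 172 and 177 against 166 and 154 (log2 fold change -0.13, limma adjusted p = 0.427), and its partner Birc5, survivin, lay at 0.07.

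The remaining mitotic members had log2 fold changes between 0.00 and 0.38, all with overlapping groups. Top2a, the topoisomerase that untangles sister chromatids, read 330 and 494 with saline and 463 and 412 with liposomes. Cenpf, a kinetochore protein, read 33.2 and 63.6 with saline and 63.1 and 56.5 with liposomes and was not well above background on 1 of 2 saline arrays. Its log2 fold change of 0.38 ± 0.34 (SE, limma adjusted p = 0.479) became 0.029 with normexp and 0.66 with quantile normalization. Its other probe, not well above background on any array, is not used. The motor genes Kif11 and Kif20a lay at 0.07 and 0.00, and Cdc20 and Ube2c, which act with the anaphase-promoting complex, at 0.05 and 0.07. Foxm1, a factor that switches on mitotic genes, lay at 0.08 ± 0.12 (SE).

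Between arrays of the same title number, which the labels do not say are paired, most mitotic members went opposite ways. That held for 16 of 18 (88.9%), against 35.4% of the 48 other mitotic genes described below and 21.8% of all genes. Liposome 1 exceeded saline 1 for 16 of 18 mitotic members, 34 of the 48 and 5976 of all 12858 genes. Liposome 2 exceeded saline 2 for 0 of 18, 17 of the 48 and 5998 of all genes. The median differences of the mitotic members were 0.39 and -0.20 log2 units. Of the 13 S phase members 8 were higher with liposomes within both numbers and 3 lower within both, where over all genes 4583 of 12858 were higher within both and 5467 lower. The S phase medians were 0.29 within number 1 and 0.09 within number 2. Between all arrays, 8 of 13 S phase genes had liposome arrays above both saline arrays and 3 below both, against 0 and 2 of 18 mitotic genes, where 30.4% of all genes lay apart above and 35.1% below.

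**Figure D3:**
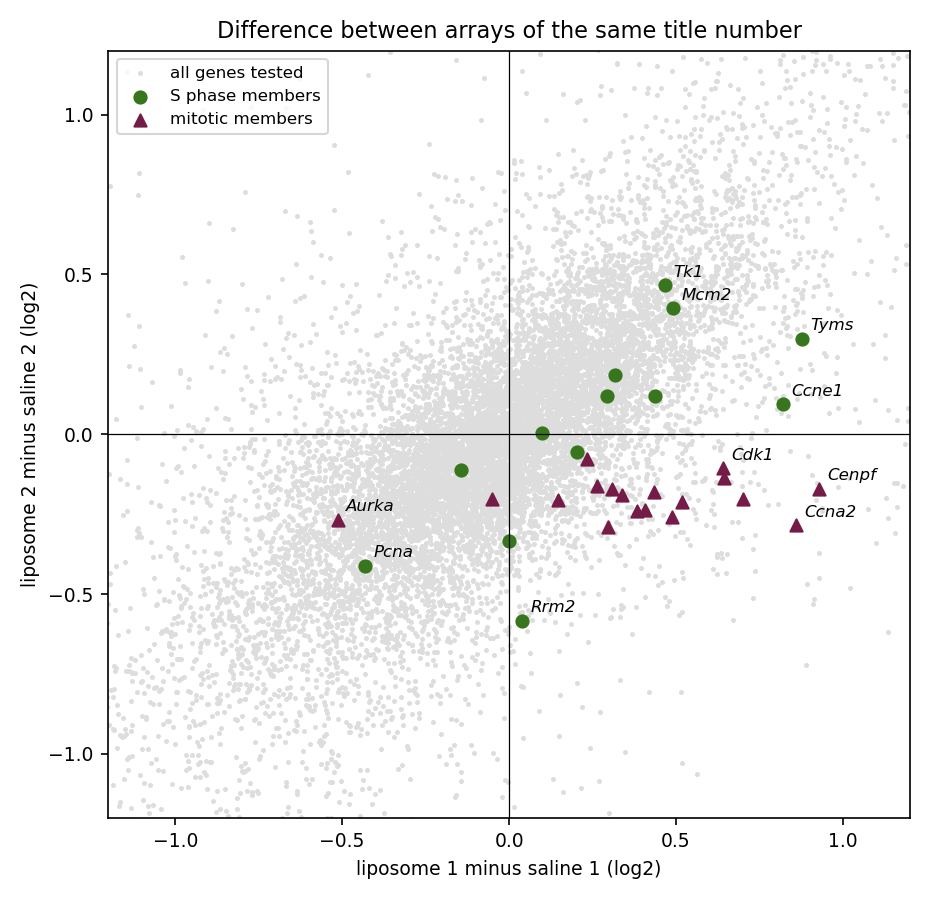
Difference between liposome 1 and saline 1 (x axis, log2 units) against liposome 2 and saline 2 (y axis, log2 units) for S phase members (circles), mitotic members (triangles) and all genes (grey; axes end at 1.2, and genes beyond are not drawn). Every mitotic gene lies below 0 on the y axis and 16 of 18 lie above 0 on the x axis, while 8 S phase genes lie above 0 on both.

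Set against each other, S phase and mitotic genes did not part the groups. The median level of S phase genes exceeded that of mitotic genes by 1.51 and 1.22 log2 units on the saline arrays and by 1.32 and 1.64 on the liposome arrays, so the groups overlapped. The median log2 fold change was 0.21 for S phase members and 0.08 for mitotic ones, a difference of 0.13. That difference was 0.21 without saline 1, 0.01 without saline 2, 0.22 without liposome 1 and -0.03 without liposome 2. Without saline 1 the mitotic median was -0.13 and 1 of 18 mitotic members had a fold change above 0. The S phase median was then 0.07, with 9 of 13 above 0. Without saline 2 the medians were 0.31 and 0.32.

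Of 34 other replication genes that entered the test 1 rose, 0 fell and 33 did not pass (2.94% higher, against 4.83% of all genes). Fold changes were above 0 for 27 of the 34 (median 0.19), and for 5929 of all 12858 genes. Without saline 1 they were above 0 for 20 of the 34, and for 6095 of all genes. The one that rose was Ung, which removes uracil from DNA (1.56-fold, limma adjusted p = 0.0377). Of 48 other mitotic genes 2 rose, 1 fell and 45 did not pass (median 0.16). These shares, 4.17% higher and 2.08% lower, lay below those of all genes, 4.83% and 4.06%. Fold changes were above 0 for 32 of the 48 other mitotic genes, and for 18 of them without saline 1. Iqgap3, a scaffold protein of proliferating cells, read 608 and 350 with saline and 1479 and 1560 with liposomes (3.29-fold, limma adjusted p = 0.0445, 0.0514 with quantile normalization and 0.0506 when its probes were averaged). Ttk, a spindle checkpoint kinase, rose 1.76-fold, and Prc1, a protein of the spindle midzone, fell 1.80-fold (limma adjusted p = 0.0267 and 0.0235). For Prc1 the dimmer of its probes had a log2 fold change of -0.37, and the mean of both had a limma adjusted p of 0.1.

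Genes of G1 went both ways, with a median log2 fold change of -0.03. Of the 15 tested, 2 rose, 1 fell and 12 did not pass (13.3% higher and 6.67% lower, against 4.83% and 4.06% of all genes). The kinase gene Cdk4 read 1764 and 1826 with saline and 2837 and 3002 with liposomes, a 1.63-fold rise (limma adjusted p = 0.0338). Its partner Ccnd1, cyclin D1, read 466 and 451 against 779 and 720, also 1.63-fold (limma adjusted p = 0.0351). For both genes the replicates lay close and the groups far apart. The other D cyclins, named here after their values were seen, did not pass and lay below 0. Ccnd3 read 4466 and 3497 with saline and 2423 and 2339 with liposomes (log2 fold change -0.73 ± 0.15, limma adjusted p = 0.0614), and Ccnd2 lay at -0.13 ± 0.19 (SE). Ccng2, a cyclin linked to cell cycle arrest, fell 1.53-fold (limma adjusted p = 0.0423, 0.0506 with median scaling and 0.0557 when its probes were averaged). Ccng1, also named after its values were seen, lay the other way and did not pass. It read 1044 and 1580 with saline and 2512 and 2785 with liposomes (log2 fold change 1.04 ± 0.23, limma adjusted p = 0.0657). Of 17 genes of the RB, E2F and DREAM regulators 0 passed by limma, and 4 (23.5%) had an unadjusted p under 0.05, against 32.5% of all genes.

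The list of CDK inhibitors and growth arrest genes lay lower with liposomes. It also holds the p53 regulator Mdm2, which is itself not a growth arrest gene. Of 17 tested, 4 fell, 0 rose and 13 did not pass (23.5% lower, against 4.06% of all genes). Of those that fell only Cdkn2d encodes a CDK inhibitor. Within both numbers 14 of the 17 lay lower, as did 5467 of all 12858 genes. The median log2 fold change of the list was -0.47. Cdkn2d, an inhibitor of CDK4 and CDK6, read 7044 and 6463 with saline and 3432 and 3785 with liposomes, a 1.87-fold fall (limma adjusted p = 0.0278). Klf2, a factor that keeps T cells at rest, fell 2.12-fold, from 7634 and 8710 to 3451 and 4305 (limma adjusted p = 0.0361). The antiproliferative gene Btg2 fell 1.68-fold and Mdm2, the regulator of p53, fell 1.59-fold (limma adjusted p = 0.0476 and 0.0438). Both missed the threshold with median scaling (limma adjusted p = 0.0584 and 0.0625), Btg2 also with quantile normalization (0.0591) and Mdm2 also when its probes were averaged (0.0518). Cdkn1b and Cdkn1c, which encode p27 and p57, lay at -0.57 and -0.48 on the log2 scale and did not pass (limma adjusted p = 0.067 and 0.0639; with normexp 0.0474 and 0.0469). Cdkn2c lay at -0.20. For Cdkn1a, which encodes p21, the brighter probe read 19284 and 19118 with saline and 19495 and 19951 with liposomes. Its dimmer probe read 11092 and 10666 against 4963 and 6729, a log2 fold change of -0.91, so the probes of this gene disagreed.

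**Figure D4:**
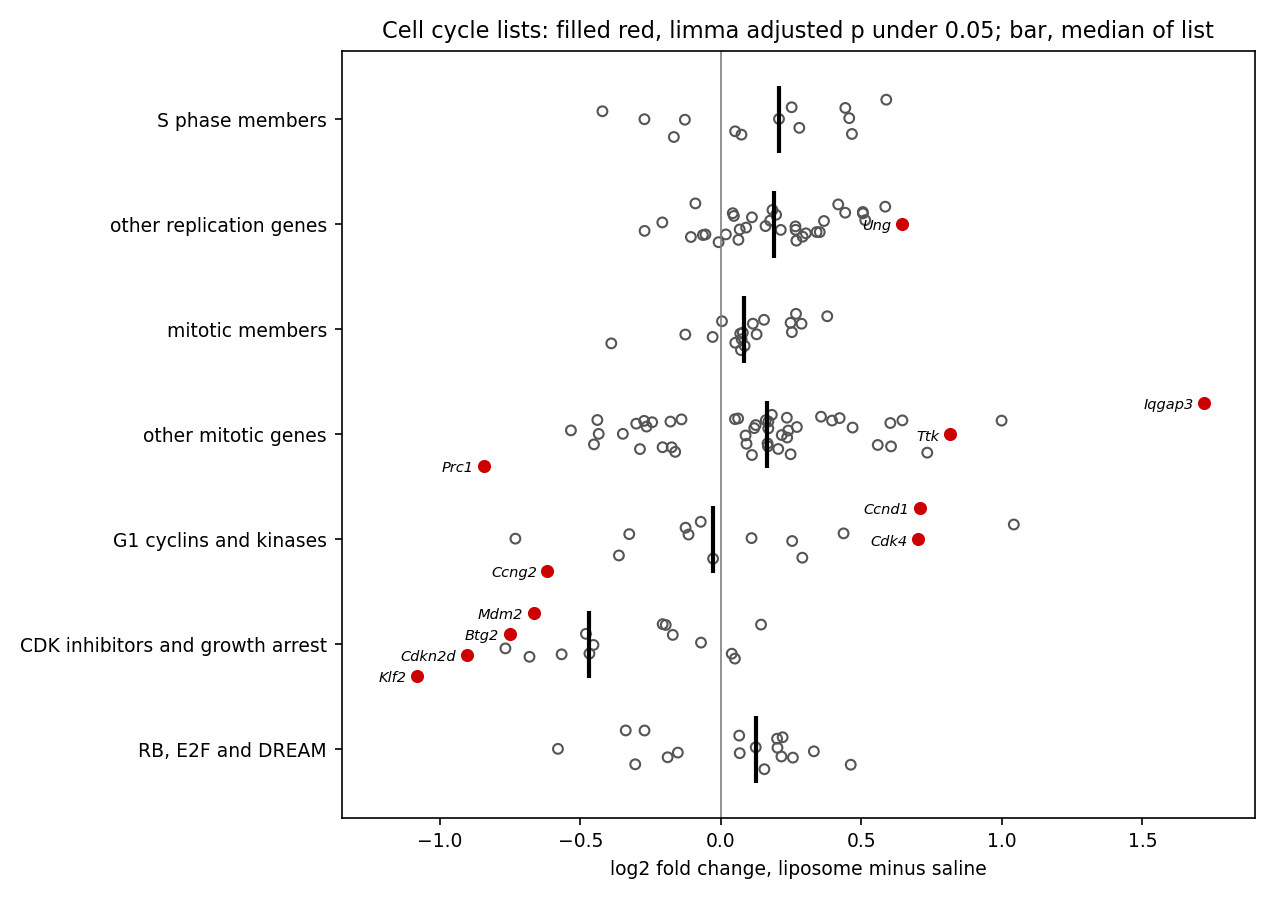
Log2 fold change, liposome minus saline (x axis, log2 units), of each tested gene in 7 cell cycle lists; filled red points have a limma adjusted p under 0.05 and black bars are list medians. The 11 filled points all lie outside the member lists, and the median of CDK inhibitors and growth arrest genes is -0.47. The lists other than the members hold 34, 48, 15, 17 and 17 tested genes, and 8.89% of all genes were called.

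With an array left out most of these calls were lost while the fold changes stayed near their size. The log2 fold change of Cdk4 ran from 0.66 to 0.74, that of Ccnd1 from 0.65 to 0.76, that of Ttk from 0.77 to 0.86, that of Prc1 from -0.87 to -0.82 and that of Cdkn2d from -0.98 to -0.83. Without either liposome array limma called 0 of all 12858 genes, with 2177 and 2397 at an unadjusted p under 0.05, so a lost call there says nothing particular to these genes. Of the 11 genes Iqgap3 alone was still called without either saline array (log2 fold change 2.12 and 1.32), where the lone array is assumed to vary like the other group. With dim probes kept in, limma called 0 genes of any kind, and 3005 had an unadjusted p under 0.05.

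The fraction held markers of several cell types, and some of these moved with the arrays. In bulk samples fewer cells of a type and less RNA per cell cannot be told apart. The macrophage genes Cd68, Csf1r and Adgre1 were well above background on all 4 arrays, and so were the T cell genes Cd3d, Cd3e and Cd3g and the B cell genes Ms4a1 and Cd79a. The summed intensity of the 17 T cell markers, all tested, was 33466 on saline 1, 83723 on saline 2, 34525 on liposome 1 and 65096 on liposome 2, and that of 13 of 16 natural killer markers was 86953 and 180950 against 61425 and 99519. Both sums were higher on number 2 than on number 1 within both groups. The sum of 13 of 15 macrophage markers was 130980 to 141820 with saline and 105030 to 114110 with liposomes (1 gene rose and 5 fell), and Cd68 read higher with liposomes without passing. The sum of 12 of 20 erythroid markers was 91190 to 94129 with saline and 34039 to 35363 with liposomes, and that of 12 of 16 neutrophil markers 250900 to 277230 and 149370 to 161940, with 6 and 7 genes fallen and 0 risen. Of the precursor markers Mpo and Prtn3 did not pass the filter. The sum of 10 of 11 monocyte markers was 225920 to 249870 with saline and 185520 to 214750 with liposomes, and that of 11 of 13 dendritic cell markers 12204 to 13322 and 7149 to 7518. Of the monocyte markers 4 fell, and of the dendritic cell markers 4 fell and 2 rose. Over all genes 4.83% rose and 4.06% fell. The sum of 16 of 17 B and plasma cell markers was 83551 to 84805 with saline and 47947 to 61918 with liposomes. By limma 0 of the B and plasma, T and natural killer cell markers passed. At an unadjusted p under 0.05 there were 10 of 16, 1 of 17 and 1 of 13, where 32.5% of all genes lay under that value. The 4 of 8 stem and progenitor markers tested were dim and summed to 291 on saline 1, 685 on saline 2, 339 on liposome 1 and 386 on liposome 2. Saline 1 was lowest in this sum but not for Gata2 or Kit. In the same array order Gata2 read 68.7, 189, 47.5 and 65.7, and Kit read 45.8, 44.9, 46.3 and 27.3. The CDK inhibitor and growth arrest genes were lower on the same liposome arrays. The part of any of these cell types in the cell cycle values was not tested.

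**Figure D5:**
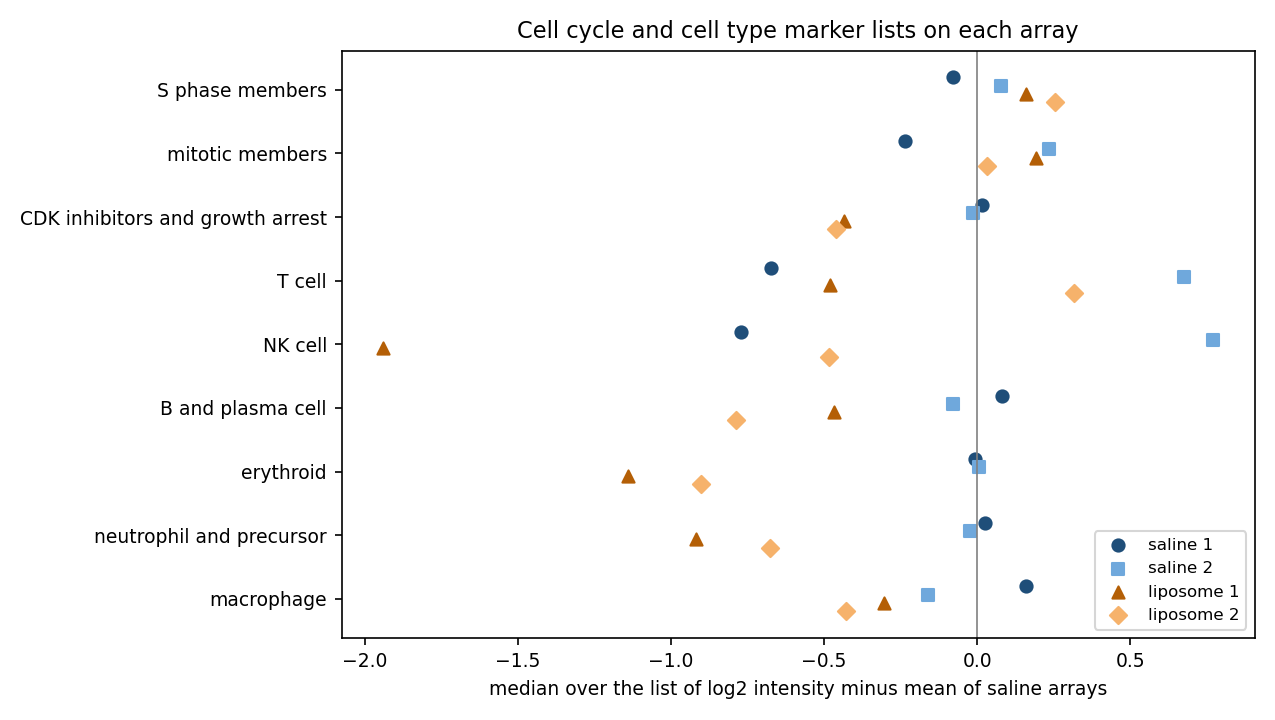
Median over each list of log2 intensity minus the mean of the saline arrays (x axis, log2 units) on each of the 4 arrays, for 3 cell cycle and 6 cell type marker lists. Saline 1 lies below saline 2 in the mitotic, T cell and NK cell lists, and above it in the macrophage list (0.16 against -0.16). The liposome arrays lie below both saline arrays in the CDK inhibitor, B cell, erythroid, neutrophil and macrophage lists.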

How the data were processed

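RNA of 4 samples, 2 per group, was read on one-colour Agilent arrays. The deposited values are linear intensities from Agilent Feature Extraction 10.7.3.1 (submitters' processing notes). Per the file headers, the software removed local background and spatial trends from the intensity, without scaling between arrays. Control spots and outlier spots were left out here, repeated spots averaged on the log2 scale and the 75th percentile of each array subtracted. Probes entered if over 0.5 of their spots were well above background on the 2 arrays of a group, and the brightest such probe stood for its gene. Names came from RefSeq accessions for 18006 of 30367 probes and otherwise from the files, and 4175 probes had none. The test was limma 3.58.1 (R 4.3.3; lmFit, eBayes), tried on simulated data first, with Benjamini-Hochberg adjustment over 12858 genes and a threshold of 0.05. The number of arrays limits the precision, and an exact permutation test of 2 against 2 cannot go below 0.333. Named genes were all members, in each other cell cycle list the 4 with the smallest adjusted p called in each direction, Cdkn1a, Cdkn1b, Cdkn1c and Cdkn2c, and the first 3 markers of each cell type, of which 1 is not reported here. Members and lists were chosen with earlier results of these data known. Alternatives were normexp (offset 50), quantile and median scaling, other filters and probe rules, the title number as a block, and leaving out each array.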

Additional observations from a re-analysis of the deposited data

How the results depend on the processing

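Among the members, 316 of 340 recomputed log2 fold changes kept their direction and their side of the threshold, 2 (Tk1) came to pass it and 22 changed sign, 14 of these without saline 1. With an array left out, the fold changes that changed sign in at least 1 fit ran, in log2 units, as follows: Birc5 -0.14 to 0.29, Bub1 -0.067 to 0.56, Bub1b -0.13 to 0.073, Ccna2 -0.13 to 0.70, Ccnb1 -0.14 to 0.45, Ccnb2 -0.17 to 0.34, Cdc20 -0.16 to 0.26, Cdk1 -0.015 to 0.55, Cenpf -0.090 to 0.85, E2f1 -0.0099 to 0.16, Foxm1 -0.039 to 0.19, Kif11 -0.12 to 0.27, Kif20a -0.21 to 0.21, Nusap1 -0.17 to 0.43, Plk1 -0.028 to 0.53, Top2a -0.18 to 0.40, Ube2c -0.13 to 0.27. With no array left out, Bub1b turned to 0.023 with quantile normalization and 0.051 with median scaling, and Cdkn1a to -0.44 when its probes were averaged. The cause of these changes was not tested.

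Members called numbered 0, and 1 (higher) with normexp or median scaling. Over all genes 1143 were called, against 1720 with normexp, 0 without the filter on dim probes (21971 genes tested, 3005 at an unadjusted p under 0.05) and 0 to 499 with an array left out. Of the other cell cycle lists 11 genes were called, 18 with normexp, 7 when probes were averaged, 0 without the filter and 0 to 2 with an array left out. As reported, these lists held 34, 48, 15, 17 and 17 tested genes, and 8.89% of all genes were called. The S phase median of 0.21 became 0.29 with median scaling and 0.14 without the filter, where Ccne2 joins it, and 0.074 to 0.32 with an array left out. The mitotic median ran from -0.13 to 0.31 and the difference of medians from -0.03 to 0.22 with an array left out.

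The labels do not say that the title numbers pair the arrays. With the number as a block limma called 1816 genes and 0 members, and 16 in the other cell cycle lists, Cdkn1b among them (limma adjusted p = 0.0469). Differences between number 2 and number 1 correlated at 0.355 between the groups over 12858 genes (-0.258 over 31 members, genes not being independent). Dim genes such as Cenpf are limited by signal over background.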
